A study of Mus musculus with 11 samples.

Results

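The CXC chemokines described here were 8 of the 32285 genes in the deposited count tables, namely Cxcl1, Cxcl2, Cxcl9, Cxcl10, Cxcl12, Cxcl13, Cxcl16 and Pf4, and they were taken by gene name. The data were single-cell RNA sequencing of cells from the right brain of 11 mice, with 1 library per mouse. The sham + WT group (replicates 1, 2 and 3) and the MCAO/R + WT group (replicates 1 and 2) were male wild-type C57BL/6 mice aged 8 to 10 weeks, after sham surgery or after middle cerebral artery occlusion followed by reperfusion. The sham + Lrg1-/- group and the MCAO/R + Lrg1-/- group (each with replicates 1, 2 and 5) were mice of 3 months from another vendor, with a conventional knockout of Lrg1 (leucine-rich alpha-2-glycoprotein 1) on C57BL/6N that removes the stretch from exon 1 to the stop codon in exon 2 in every cell. Genotype therefore cannot be told apart from age, substrain and vendor. Reperfusion times of 1 to 24 h are listed for the surgery and 1 h is named in the study's discussion, and neither is tied to the sequenced libraries, so the time behind these values is uncertain. All brains were dissociated at 37 °C and treated to lyse red blood cells.

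CXC chemokines are small secreted proteins that guide leukocytes along gradients through receptors coupled to G proteins. Cxcl1 and Cxcl2 draw neutrophils through Cxcr2 and are typical targets of NF-kappaB, Cxcl9 and Cxcl10 are induced by interferons and draw T cells through Cxcr3, Cxcl12 is a constitutive retention signal of the vessel wall that acts through Cxcr4 and Ackr3, and Cxcl13 draws B cells through Cxcr5. Cxcl16 is made as a membrane protein that Adam10 and Adam17 can shed and is bound by Cxcr6, and Pf4 is a platelet protein that border macrophages of the brain also make.

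Of the members, 6 lie on chromosome 5 within 5188.6 kb (GRCm38, GENCODE annotation). Pf4 is at chr5:90772435-90773383 on the + strand, Cxcl1 (ENSMUSG00000029380) at chr5:90891241-90893115 on the + strand and Cxcl2 (ENSMUSG00000058427) at chr5:90903871-90905938 on the + strand, 10.8 kb further on. Cxcl9 is at chr5:92321347-92328079 and Cxcl10 (ENSMUSG00000034855) at chr5:92346638-92348889, both on the - strand with 18.6 kb between them, and Cxcl13 is at chr5:95956951-95961068 on the + strand. Cxcl12 (ENSMUSG00000061353) is at chr6:117168535-117181367 on the + strand and Cxcl16 at chr11:70453983-70459984 on the - strand.

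The 250 bases before the RefSeq start (GRCm38) are shown for Cxcl1, Cxcl2 and Cxcl10, the inducible members on which the results turn, and for Cxcl12, the constitutive one. Capitals mark matches to the NF-kappaB motif GGGNNNTTCC or to the interferon response element GAAANNGAAA, searched on both strands, and overlapping matches appear as 1 run. The windows are chr5:90890995-90891244 (+) for Cxcl1, chr5:90903649-90903898 (+) for Cxcl2, chr5:92348890-92349139 (-) for Cxcl10 and chr6:117168285-117168534 (+) for Cxcl12, each read 5′ to 3′ on the strand of its gene.
Cxcl1: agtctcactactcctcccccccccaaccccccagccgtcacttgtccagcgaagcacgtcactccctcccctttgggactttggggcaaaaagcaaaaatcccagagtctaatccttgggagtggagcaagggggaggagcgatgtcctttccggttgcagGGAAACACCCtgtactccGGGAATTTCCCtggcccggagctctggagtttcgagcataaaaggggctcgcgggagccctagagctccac
Cxcl2: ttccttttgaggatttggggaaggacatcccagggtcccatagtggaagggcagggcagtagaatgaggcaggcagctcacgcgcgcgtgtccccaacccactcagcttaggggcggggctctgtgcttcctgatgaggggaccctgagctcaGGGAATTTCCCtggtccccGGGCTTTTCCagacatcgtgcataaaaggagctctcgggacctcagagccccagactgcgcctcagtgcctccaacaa
Cxcl10: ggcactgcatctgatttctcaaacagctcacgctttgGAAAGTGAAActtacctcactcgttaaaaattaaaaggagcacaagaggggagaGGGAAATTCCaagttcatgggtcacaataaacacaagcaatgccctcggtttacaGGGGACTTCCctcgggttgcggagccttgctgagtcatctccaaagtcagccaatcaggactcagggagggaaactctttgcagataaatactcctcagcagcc
Cxcl12: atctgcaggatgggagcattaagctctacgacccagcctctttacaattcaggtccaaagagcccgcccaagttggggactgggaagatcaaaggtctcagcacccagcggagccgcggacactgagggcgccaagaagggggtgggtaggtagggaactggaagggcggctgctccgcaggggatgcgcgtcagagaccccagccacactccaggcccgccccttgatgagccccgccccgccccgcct
The same run, GGGAATTTCC, stands 71 bases before the start of Cxcl1 and 97 bases before that of Cxcl2, and in both genes a match on the opposite strand, which reads GGAATTTCCC on this strand, overlaps it from 1 base further on. Cxcl10 holds GGGAAATTCC at 159 bases, GGGGACTTCC at 104 bases and GAAAGTGAAA at 213 bases before its start. Of 32851 promoters of this length, 4.65% hold the NF-kappaB motif, 2.98% the interferon response element and 7.02% the gamma-activated site TTCNNNGAA. No match to these 3 motifs lay in the windows of Cxcl9, Cxcl12, Cxcl13 and Pf4, and 7 of the 8 members had a window in the table. A match describes letters and is neither a binding site nor a cause, and a window without one says nothing of the factor.

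The tables held raw counts of unique molecular identifiers (UMIs, each a captured RNA molecule) for 155804 cell barcodes, with 37159497 to 171813031 UMIs per library. After filters on genes, UMIs, mitochondrial share and doublets, the libraries held between 3054 and 32130 cells, with a median of 6043 to 11300 UMIs per cell in the WT libraries and 3077 to 7446.5 in the Lrg1-/- libraries. Lrg1 stood at 1.74 to 6.08 CPM (counts scaled to a total of 1e+06) in the sham + WT libraries and at 136 and 120 CPM in the MCAO/R + WT libraries, and 1 Lrg1 UMI was found over the 6 Lrg1-/- libraries. Haemoglobin transcripts took 0.0236% to 0.0423% of UMIs in the WT libraries and 3.55% to 9.25% in the Lrg1-/- libraries. Clusters were given 1 of 17 cell type names from markers, so each name below stands for cells that are like that type by their markers, and 24014 cells (19.1%) stayed unnamed, among them 46.9% of MCAO/R + Lrg1-/- replicate 5 and 47.6% of MCAO/R + Lrg1-/- replicate 1. Cells of a type were summed per library, and levels are CPM of the normalised total of that sum in libraries with at least 20 such cells, listed in the order of the replicate numbers.

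Microglia and endothelial cells were the main sources of several members. The shares given here are of the whole-library CPM averaged over the libraries of a group and then over the groups, so that groups with a high level of a gene weigh more. Microglia gave 78.9% of Cxcl10 (10.3% to 91.2% of the UMIs in single libraries) and 55.2% of Cxcl16 (19.1% to 83.55%). Endothelial cells gave 85.8% of Cxcl12 (45.0% to 92.3%) and 42.5% of Cxcl1 (3.93% to 73.1%). Border macrophages, the resident macrophages of meninges and vessels, gave 52.9% of Pf4 (6.56% to 88.4%). Cxcl2 had no single main source, with 26.9% from microglia, 22.95% from monocytes, 18.3% from border macrophages, 10.9% from neutrophils and 9.19% from unnamed cells. Border macrophages held 42.0% to 57.8% of its UMIs in the sham + WT libraries and 33.9% to 61.1% in the sham + Lrg1-/- libraries. Microglia held 56.8% and 63.3% in the MCAO/R + WT libraries, and monocytes 22.4% to 53.5% in the MCAO/R + Lrg1-/- libraries. Ranked by mean level, with the groups that had a library read for the type weighted equally, Cxcl1 was highest in pericytes (434 CPM), border macrophages (401 CPM) and monocytes (235 CPM), where "monocytes" includes monocyte-derived macrophages. All monocytes were cluster 24, led by Arg1, Chil3, H2-Aa, H2-Ab1 and H2-Eb1, with 83.3% of its cells from MCAO/R + Lrg1-/-. All T cells were cluster 28, whose next-best type was natural killer cells, with Gzma and Nkg7 among its leading genes. No cluster was named dendritic cells, and the mix of cells behind these names in each group was not tested. Cxcl2 was highest in neutrophils (8138 CPM), border macrophages (4717 CPM) and monocytes (3294 CPM), and Cxcl10 in microglia (713 CPM), T cells (424 CPM) and neutrophils (281 CPM). Cxcl12 led in endothelial cells (860 CPM), fibroblasts (594 CPM) and B cells (173 CPM), Cxcl16 in monocytes (144 CPM), border macrophages (107 CPM) and microglia (89.5 CPM), and Pf4 in border macrophages (1893 CPM), monocytes (157 CPM) and B cells (99.4 CPM). In each of these orders, neighbouring types overlapped in their ranges over libraries, and some places rest on few cells or groups. Neutrophils had no sham + Lrg1-/- library read, and in sham + WT their Cxcl2 level was 1713 CPM against 2656 CPM in border macrophages. The T cell mean of Cxcl10 holds 1 MCAO/R + WT library of 23 cells at 1029 CPM, with the other group means at 511, 37.6 and 117 CPM. The B cell mean of Pf4 rests on 1 sham + Lrg1-/- library of 50 cells at 257 CPM, with the other group means at 17.9 and 23.4 CPM.

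**Figure D1:**
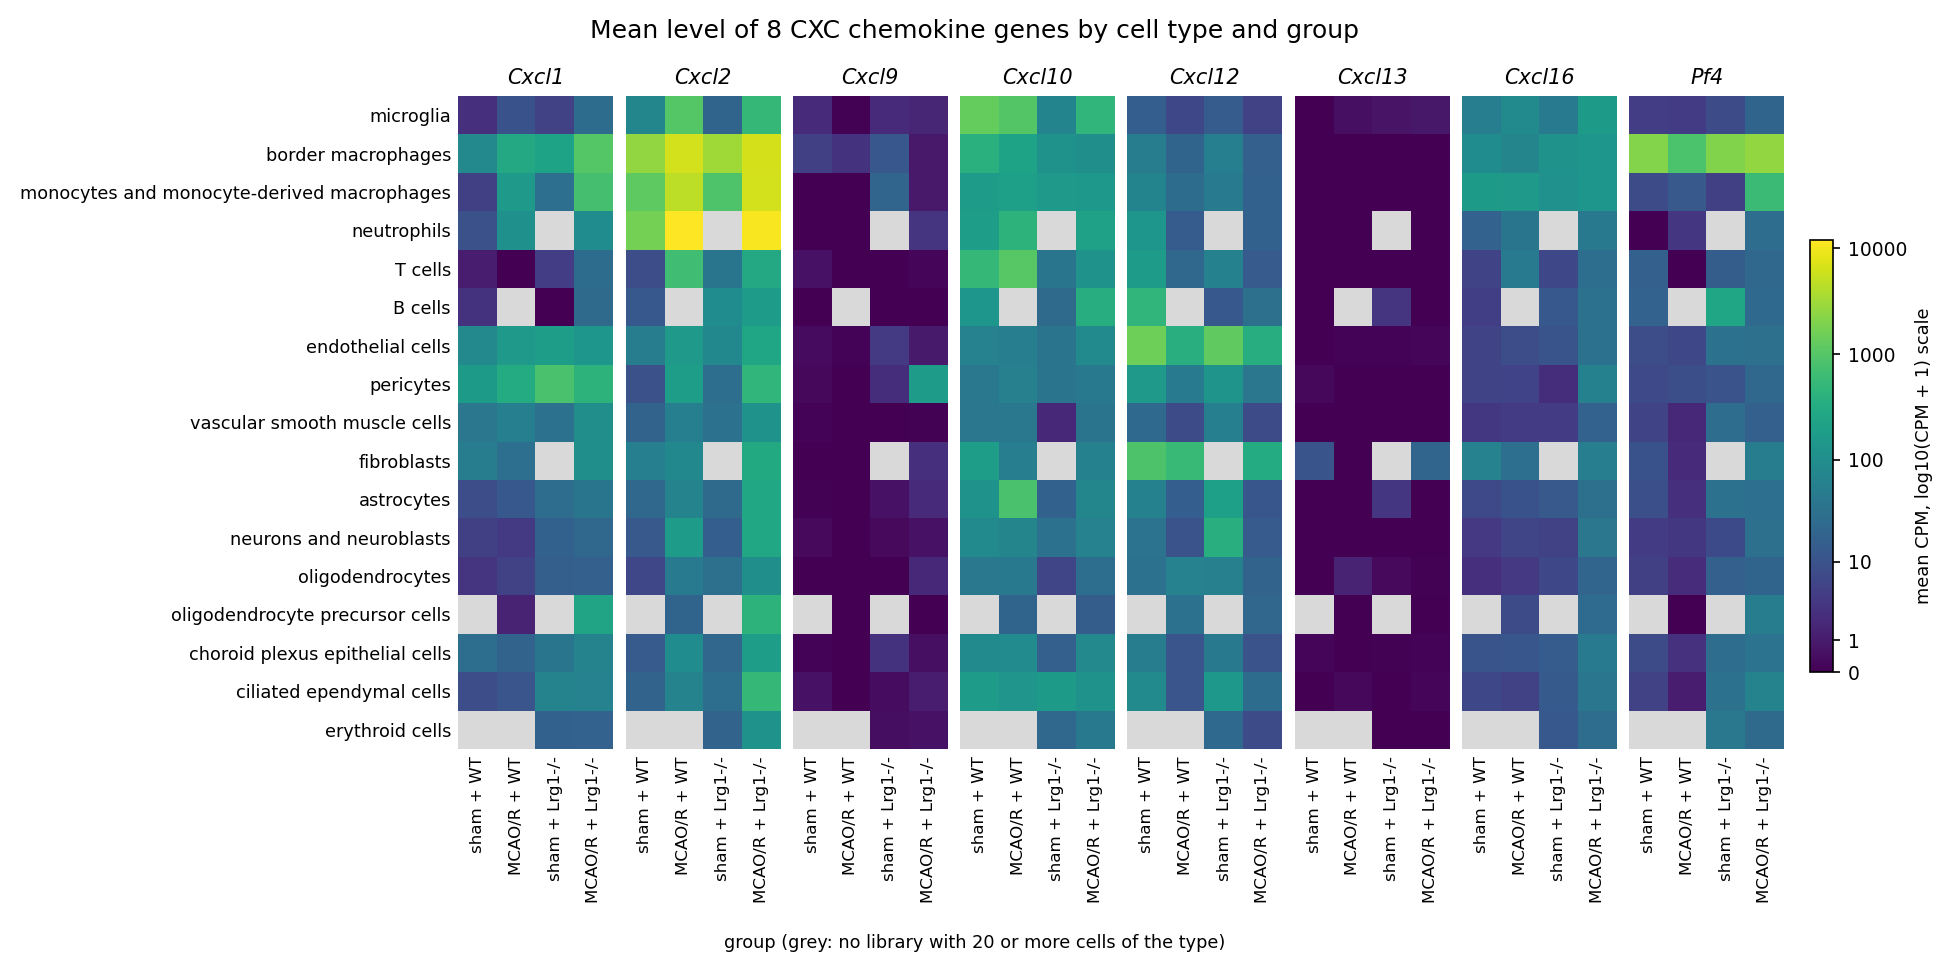
Mean level of each member (1 block each) by cell type (rows) and group (columns), as log10 of CPM + 1, where brighter is higher and grey marks no library with 20 cells of the type. Cxcl10 is bright in microglia other than those of sham + Lrg1-/-, Cxcl12 is brightest in endothelial cells, and Pf4 in border macrophages.

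Over members and cell types, the comparison of MCAO/R + Lrg1-/- with MCAO/R + WT called 27 of 91 tested combinations (29.7%), where the background over all genes and types was 14.0%. Of these, 23 were higher and 4 lower in MCAO/R + Lrg1-/-, against backgrounds of 7.31% and 6.70%. The 27 include 2 in oligodendrocyte precursor cells, where 3 libraries in all were read and 1 stood for MCAO/R + WT, and these are given below as values with no test. Some other calls counted in this paragraph also rest on 1 library in a group. They are those in T cells that use MCAO/R + WT and in B cells that use sham + Lrg1-/-, given below with no test. MCAO/R + WT against sham + WT called 15 of 87 (17.2%, background 7.95%), with 8 higher and 7 lower (backgrounds 4.15% and 3.80%). MCAO/R + Lrg1-/- against sham + Lrg1-/- called 31 of 88 (35.2%, background 9.77%), with 23 higher and 8 lower (backgrounds 5.40% and 4.38%). Between the sham groups, 19 of 82 were called (23.2%, background 11.2%), 10 higher and 9 lower in Lrg1-/- mice (backgrounds 5.58% and 5.62%). The interaction, which tests whether the MCAO/R effect differs between genotypes, called 4 of 76 (5.26%, background 1.70%), 3 higher and 1 lower (backgrounds 1.01% and 0.694%). In the 3 cell types of highest mean level of each member, 7 of 17, 2 of 17, 7 of 16, 4 of 16 and 1 of 14 were called in turn. These types were chosen from the same data, and no background over the same types was taken. In microglia alone, the background over all genes was 23.2%, 22.1%, 38.2%, 22.9% and 12.2% in these comparisons. A call is a Benjamini-Hochberg adjusted p below 0.05 over all genes of the cell type in edgeR's quasi-likelihood test, with a natural-log fold change beyond 0.25. All groups share 1 estimate of the spread, and each group serves in more than 1 of these comparisons, so they are not independent. No interaction was called for Cxcl1, Cxcl2, Cxcl9, Cxcl13, Cxcl16 or Pf4 (unadjusted p under 0.05 in 0, 1, 1, 0, 7 and 3 types), so a call in 1 genotype alone does not show that the genotypes differed in it. Of the calls, 8, 4, 16, 8 and 1 respectively were kept in every alternative fit, including those without any 1 library, and 13, 6, 20, 9 and 3 in every alternative that left out no library.

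Among the members tested in microglia, Cxcl2 rose most after MCAO/R in both genotypes. Its level there was 88.3, 80.3 and 49.7 CPM in the sham + WT libraries and 1305 and 720 CPM in the MCAO/R + WT libraries. It was 30.4, 12.1 and 15.6 CPM in the sham + Lrg1-/- libraries and 434, 690 and 422 CPM in the MCAO/R + Lrg1-/- libraries. Every MCAO/R library was above every sham library, and the sham + Lrg1-/- libraries were below the sham + WT libraries. The log2 change after MCAO/R was 3.80 (SE 0.36, edgeR adjusted p = 1.11e-05) in WT mice and 4.69 (SE 0.38, edgeR adjusted p = 6.45e-06) in Lrg1-/- mice, and between the sham groups it was -1.87 (SE 0.35, edgeR adjusted p = 0.00207). All 3 calls were kept in every fit.

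The groups filled the microglia class from different clusters, and cluster 0, which held 63.8% of sham + WT microglia, was led by the immune genes Ifnb1, Ifih1 and Ifit2. Clusters 5, 13 and 11 held 63.7%, 18.3% and 11.8% of microglia of MCAO/R + WT, cluster 16 held 76.2% of those of sham + Lrg1-/-, and clusters 11, 13, 7 and 32 held 33.4%, 27.4%, 26.7% and 8.69% of those of MCAO/R + Lrg1-/-. Within cluster 7, Cxcl2 was at 32.3, 8.5 and 22.0 CPM in the sham + Lrg1-/- libraries and at 39.1, 145 and 180 CPM in the MCAO/R + Lrg1-/- libraries. In cluster 13, it was at 2218 and 3410 CPM in the MCAO/R + WT libraries and at 1058, 939 and 925 CPM in the MCAO/R + Lrg1-/- libraries, with no overlap. The difference between the MCAO/R groups over the whole class was not called.

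A Cxcl2 UMI was found in 9.28% to 12.6% of sham + WT microglia and in 67.9% and 44.4% of MCAO/R + WT microglia. After thinning each cell to 2000 UMIs, these shares were 3.22% to 5.41%, and 33.5% and 25.6%. In oligodendrocytes, which are not known as a source, the thinned share was 1.35% to 2.29% in the sham + WT libraries, 13.6% and 5.55% in the MCAO/R + WT libraries, and 3.54%, 27% and 27% in the MCAO/R + Lrg1-/- libraries. Thinned shares in MCAO/R + Lrg1-/- microglia were 13.4%, 33.7% and 29.9%. In replicates 2 and 5 of that group, the thinned shares of microglia and oligodendrocytes were thus close. Their levels were not, at 422 to 690 CPM in microglia and 15.8 to 157 CPM in oligodendrocytes over the libraries of that group. Median depths over the Lrg1-/- libraries were 4192 to 9149 UMIs per cell in microglia and 3630 to 7434 in oligodendrocytes.

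Border macrophages and monocytes, unlike microglia, had high Cxcl2 levels in most libraries already after sham surgery. Monocytes had 1241, 563 and 1670 CPM in the sham + WT libraries and 4331 and 5123 CPM in the MCAO/R + WT libraries. The levels were 1476, 1128 and 147 CPM in the sham + Lrg1-/- libraries and 2612, 8198 and 8312 CPM in the MCAO/R + Lrg1-/- libraries. The groups did not overlap in either genotype, and the rise was called in Lrg1-/- mice (log2 change 2.80, SE 0.65, edgeR adjusted p = 0.0132, kept in every fit). Border macrophages had 2295, 3103 and 2570 CPM in sham + WT, 9154 and 3670 CPM in MCAO/R + WT, 3950, 3038 and 2520 CPM in sham + Lrg1-/- and 3334, 9656 and 6908 CPM in MCAO/R + Lrg1-/-. Neither change after MCAO/R was called there. Neutrophils reached 20 cells in sham + WT replicate 2 (1713 CPM), in both MCAO/R + WT libraries (16619 and 6674 CPM) and in MCAO/R + Lrg1-/- replicates 2 and 5 (9287 and 12821 CPM), so that sham neutrophils were read in 1 library of 20 cells.

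Neutrophils, the cells these 2 ligands attract, made up 0.559% and 0.43% of cells in the MCAO/R + WT libraries (54 and 51 cells). In the MCAO/R + Lrg1-/- libraries they made up 0.215%, 1.8% and 3.9% (13, 311 and 1254 cells), and each sham library had 6 to 20 cells. These shares are of all cells of a library, unnamed cells included, and no unnamed cell was counted as a neutrophil. Among the unnamed cells, cluster 1 (7883 cells) scored best as neutrophils, and 93.6% of it came from MCAO/R + Lrg1-/- replicate 5. Over whole libraries, Cxcl2 was at 108, 112 and 99.9 CPM in sham + WT, 899 and 353 CPM in MCAO/R + WT, 145, 120 and 94.3 CPM in sham + Lrg1-/- and 261, 1183 and 1569 CPM in MCAO/R + Lrg1-/-. All MCAO/R libraries lay above all sham libraries, and the MCAO/R groups overlapped. In such whole-library levels, fewer cells of a type and less RNA per cell cannot be told apart.

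Vascular cells gave the same direction. Cxcl2 over whole libraries was also higher after MCAO/R. The part of free RNA from other cells in the levels of this and the next paragraph was not tested. Pericytes, the mural cells of capillaries, had 13.1, 6.83 and 7.99 CPM of Cxcl2 in the sham + WT libraries and 270 and 106 CPM in the MCAO/R + WT libraries (log2 change 4.33, SE 0.46, edgeR adjusted p = 0.000109, kept in every fit). They had 42.5 and 14.5 CPM in sham + Lrg1-/- replicates 1 and 2 and 293 and 668 CPM in MCAO/R + Lrg1-/- replicates 2 and 5 (log2 change 4.04, SE 0.66, edgeR adjusted p = 0.00692). The latter call was lost without either sham + Lrg1-/- library (3.44 to 4.99 over the fits). Endothelial Cxcl2 went from 66.3, 54.6 and 37.9 CPM to 190 and 134 CPM in WT mice (log2 change 1.62, SE 0.49, edgeR adjusted p = 0.0463), a call kept in 4 of 11 fits without a library (1.34 to 1.85) and lost without any 1 of the sham + WT or MCAO/R + WT libraries, sham + Lrg1-/- replicate 1 or MCAO/R + Lrg1-/- replicate 2. In choroid plexus cells, which here and below are epithelial and not vascular, Cxcl2 rose in both genotypes. The log2 change was 2.71 (SE 0.53, edgeR adjusted p = 0.0254) in WT mice and 3.13 (SE 0.44, edgeR adjusted p = 0.00341) in Lrg1-/- mice. The first of these was lost without sham + WT replicate 1 or 3 or either MCAO/R + WT library (2.34 to 3.64), and the second was kept in every fit.

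The other Cxcl2 calls were also in the higher direction. T cells had 8.54, 10.99 and 4.90 CPM in the sham + WT libraries. In the 1 MCAO/R + WT library read they had 668 CPM in 23 cells (log2 change 6.27), too few for a test. They had 83.3, 21.55 and 7.23 CPM in the sham + Lrg1-/- libraries and 96.7, 439.7 and 341 CPM in the MCAO/R + Lrg1-/- libraries (log2 change 2.75, edgeR adjusted p = 0.0447, kept in 3 of 10 fits without a library). Within Lrg1-/- mice, endothelial, erythroid and vascular smooth muscle cells were called after MCAO/R at log2 changes of 1.64, 2.84 and 2.18 (edgeR adjusted p = 0.0316, 0.0247 and 0.0206), with overlapping libraries in all 3 types, and these calls were kept in 7 of 11, 4 of 6 and 8 of 11 fits without a library. Oligodendrocytes were called in WT mice, at 2.90 (edgeR adjusted p = 0.0142, kept in 8 of 11). Between the MCAO/R groups, Cxcl2 was called higher in Lrg1-/- pericytes, at 1.3 (edgeR adjusted p = 0.0495, kept in 2 of 9). Oligodendrocyte precursor cells had 19.45 CPM in the 1 MCAO/R + WT library read and 114 and 757 CPM in 2 MCAO/R + Lrg1-/- libraries, too few for a test. Between the sham groups, the log2 difference in B cells was 2.87, from 1 sham + Lrg1-/- library, too few for a test.

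Cxcl1, the other neutrophil attractant, rose after MCAO/R in monocytes. Levels there were 11.5, 1.55 and 1.63 CPM in the sham + WT libraries, 69.3 and 256 CPM in the MCAO/R + WT libraries, 57.4, 6.71 and 26.3 CPM in the sham + Lrg1-/- libraries and 96.0, 1038 and 1094 CPM in the MCAO/R + Lrg1-/- libraries. Sham and MCAO/R libraries did not overlap within either genotype. The log2 change was 4.43 (SE 0.85, edgeR adjusted p = 0.00522, kept in every fit at 4.05 to 5.37) in Lrg1-/- mice. In WT mice it was 5.07 (SE 1.21, edgeR adjusted p = 0.0371), lost without any 1 of the 5 WT libraries or sham + Lrg1-/- replicate 5 (3.92 to 6.55). After MCAO/R, most monocytes with a Cxcl1 UMI also had a Cxcl2 UMI, namely 11 of 11 in MCAO/R + WT and 945 of 960 in MCAO/R + Lrg1-/-. Among all monocytes, 63 of 73 and 1628 of 1717 had a Cxcl2 UMI in these groups.

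In border macrophages, Cxcl1 was at 98.1, 80.0 and 69.4 CPM in the sham + WT libraries, 484 and 87.9 CPM in the MCAO/R + WT libraries, 341, 210 and 138 CPM in the sham + Lrg1-/- libraries and 484, 1591 and 936 CPM in the MCAO/R + Lrg1-/- libraries. MCAO/R + WT replicate 1 and MCAO/R + Lrg1-/- replicate 1 were level, and the other MCAO/R + Lrg1-/- libraries were higher. The difference between the MCAO/R groups was called (log2 difference 1.81, SE 0.58, edgeR adjusted p = 0.0412) but kept in 4 of 11 fits without a library (1.04 to 3.55). It was lost without any 1 of the sham + WT libraries, MCAO/R + WT replicate 2, sham + Lrg1-/- replicate 2, or MCAO/R + Lrg1-/- replicate 2 or 5. Within Lrg1-/- mice the rise after MCAO/R was 2.10 on the log2 scale (SE 0.52, edgeR adjusted p = 0.0236), lost without sham + Lrg1-/- replicate 2 or 5 or MCAO/R + Lrg1-/- replicate 2 (1.56 to 2.51).

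Pericytes, the cell type with the highest mean Cxcl1, had 163, 225 and 110 CPM in the sham + WT libraries, 559 and 90.4 CPM in the MCAO/R + WT libraries, 1099 and 538 CPM in sham + Lrg1-/- replicates 1 and 2, and 735 and 120 CPM in MCAO/R + Lrg1-/- replicates 2 and 5. The groups overlapped widely, apart from the sham groups, and none of these comparisons was called. Endothelial Cxcl1 was 113, 77.1 and 57.8 CPM in the sham + WT libraries, 166 and 140 CPM in the MCAO/R + WT libraries, 143, 81.1 and 324 CPM in the sham + Lrg1-/- libraries and 134, 165 and 117 CPM in the MCAO/R + Lrg1-/- libraries. Between the sham groups, whose endothelial libraries overlapped, the log2 difference was 1.14 (SE 0.40, edgeR adjusted p = 0.0498). That call was kept in 3 of 11 fits without a library (0.43 to 1.47), namely those without sham + WT replicate 1, sham + Lrg1-/- replicate 2 and MCAO/R + Lrg1-/- replicate 5. In microglia Cxcl1 was low and rose after MCAO/R in both genotypes. Its level was 2.99, 2.83 and 1.70 CPM in the sham + WT libraries, 15.6 and 3.80 CPM in the MCAO/R + WT libraries, 2.96, 5.12 and 8.37 CPM in the sham + Lrg1-/- libraries and 13.7, 45.5 and 21.2 CPM in the MCAO/R + Lrg1-/- libraries. The log2 change was 1.96 in WT mice (SE 0.54, edgeR adjusted p = 0.0191), lost without sham + WT replicate 3 or MCAO/R + WT replicate 1 (0.59 to 2.64), and 2.45 in Lrg1-/- mice (SE 0.58, edgeR adjusted p = 0.00457, kept in every fit).

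The remaining Cxcl1 calls lay outside its 3 main cell types. In Lrg1-/- vascular smooth muscle cells it went from 28.9, 27.2 and 39.7 CPM to 49.6, 101.8 and 161 CPM after MCAO/R (log2 change 1.85, edgeR adjusted p = 0.0105, lost without sham + Lrg1-/- replicate 1 or 2, range 1.46 to 2.08). Neurons and neuroblasts were called higher in MCAO/R + Lrg1-/- than in MCAO/R + WT, at 2.73 (edgeR adjusted p = 0.0258, kept in 7 of 11 fits without a library). Oligodendrocyte precursor cells had 1.496 CPM (1 UMI) in the 1 MCAO/R + WT library read and 25.3 and 457.7 CPM in 2 MCAO/R + Lrg1-/- libraries (6 and 55 UMIs), too few for a test. Ciliated ependymal cells were called higher in sham + Lrg1-/- than in sham + WT, at 3.05 (edgeR adjusted p = 0.0385, kept in 4 of 11).

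**Figure D2:**
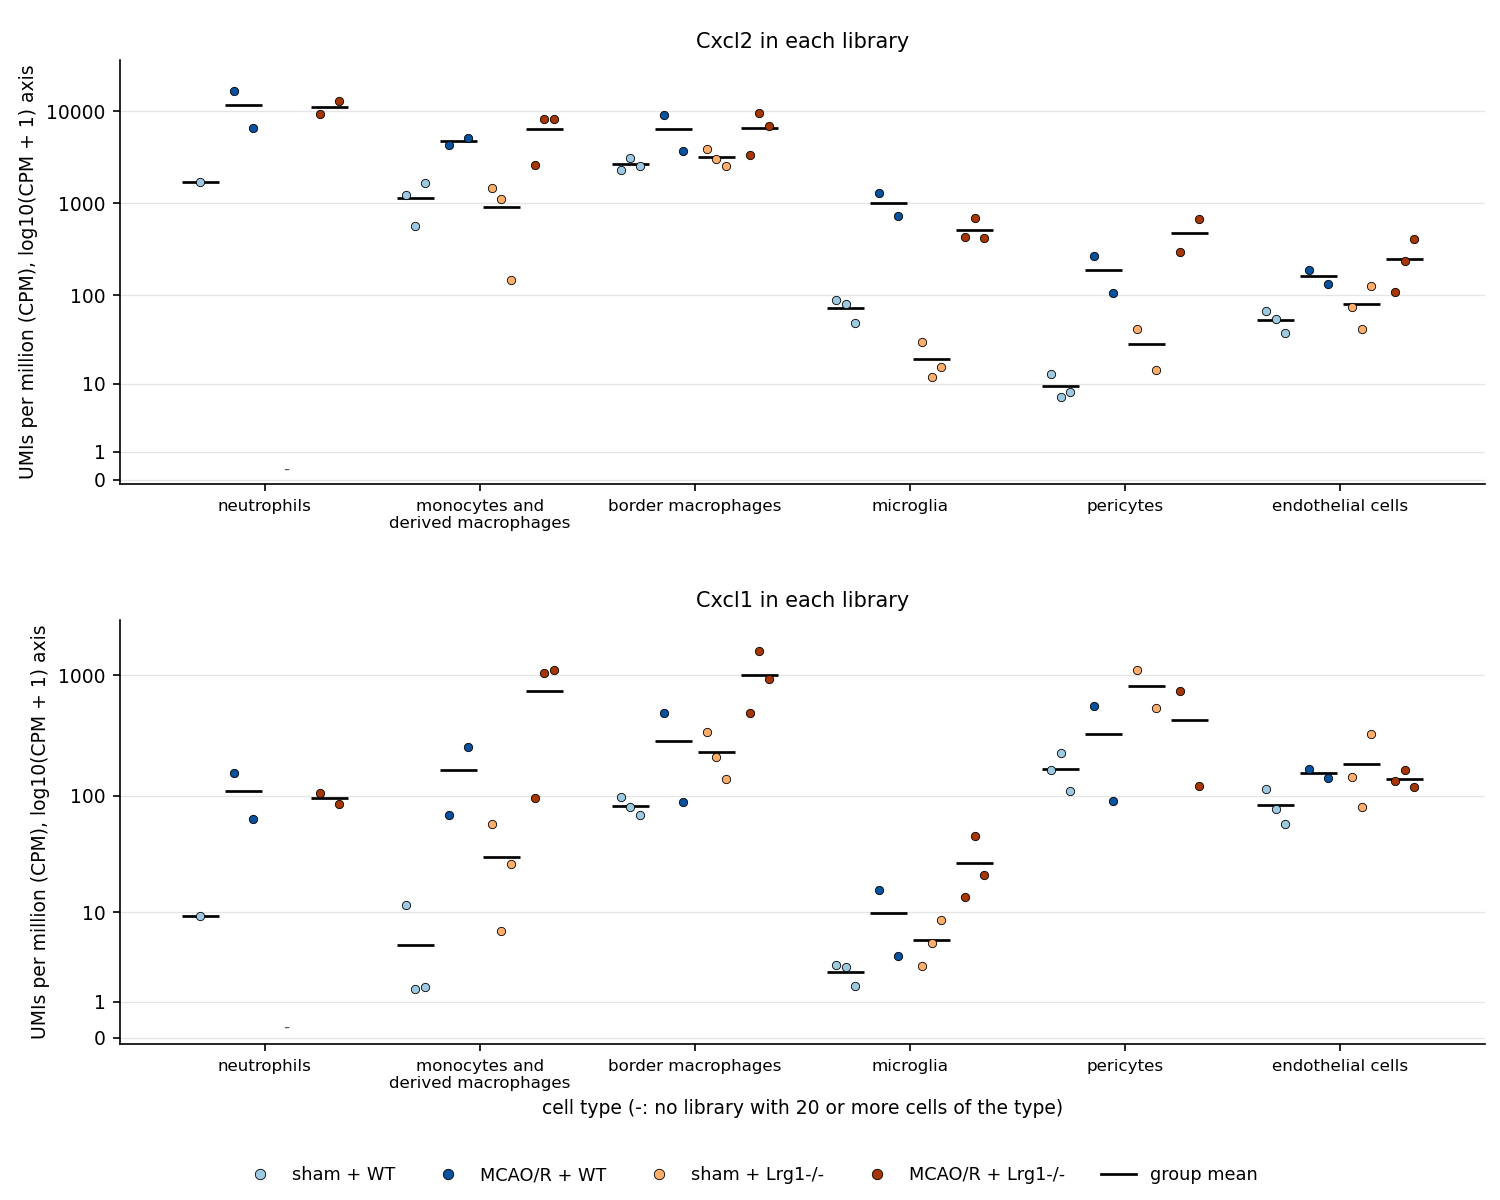
Cxcl1 and Cxcl2 in each library by group, as log10 of CPM + 1, in the cell types named under each axis, where points are libraries and lines are group means. In microglia and monocytes the MCAO/R libraries lie above the sham libraries for Cxcl2, and in pericytes Cxcl1 overlaps between the surgeries.

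Genes of the NF-kappaB-induced list (10 genes such as Tnf, Ccl2 and Nfkbia) were tested in microglia beside these ligands. After MCAO/R, 5 of them rose and 1 fell in WT mice, and 7 rose and 2 fell in Lrg1-/- mice, with median log2 changes of 0.80 and 0.84 against 0.06 and 0.05 over all genes. Tnf, an inflammatory cytokine, rose by 1.11 in WT mice and by 2.07 in Lrg1-/- mice on the log2 scale, and Ccl2, a monocyte attractant, by 2.39 and 2.47. In Lrg1-/- against WT mice, 5 of the 10 were lower both between the sham groups (median -0.51, all genes -0.03) and between the MCAO/R groups (median -0.52, all genes 0.09). Over all genes tested in microglia, 22.1%, 38.2%, 22.9% and 23.2% were called in these comparisons in the order given.

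Cxcl10 was lower in microglia of Lrg1-/- than of WT mice, above all after sham surgery. Its level was 1310, 1534 and 1106 CPM in the sham + WT libraries and 57.5, 84.8 and 60.2 CPM in the sham + Lrg1-/- libraries. After MCAO/R, it was 1013 and 943 CPM in the WT libraries and 680, 492 and 299 CPM in the Lrg1-/- libraries. The sham + Lrg1-/- libraries lay far below all others, the MCAO/R + Lrg1-/- libraries lay below the MCAO/R + WT libraries, and none of the 4 groups overlapped with another. The sham difference was -4.28 on the log2 scale (SE 0.28, edgeR adjusted p = 5.57e-07), or 19.5-fold lower. The MCAO/R difference was -1.0 (SE 0.26, edgeR adjusted p = 0.0157). Within Lrg1-/- mice Cxcl10 rose after MCAO/R by 2.85 (SE 0.26, edgeR adjusted p = 1.21e-05), and within WT mice no change was called, so that the interaction was 3.28 (SE 0.38, edgeR adjusted p = 0.00133). All 4 calls were kept in every fit.

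Within microglial clusters that the groups shared, levels differed between the genotypes, and in 2 of them the sham and MCAO/R libraries of Lrg1-/- mice overlapped. In cluster 7, led by P2ry12, Tmem119 and other markers of resting microglia, Cxcl10 was at 1044, 1079 and 906 CPM in the sham + WT libraries, 709 and 556 CPM in the MCAO/R + WT libraries, 55.3, 29.8 and 85.9 CPM in the sham + Lrg1-/- libraries and 75.0, 37.5 and 48.7 CPM in the MCAO/R + Lrg1-/- libraries. In cluster 16 the sham + WT libraries had 468, 739 and 517 CPM, the sham + Lrg1-/- libraries 45.2, 29.1 and 30.1 CPM and the MCAO/R + Lrg1-/- libraries 55.8, 39.0 and 26.6 CPM. Cluster 13, led by Lpl and Spp1, which had few sham cells, held 1342 and 2048 CPM in the MCAO/R + WT libraries and 1046, 631 and 790 CPM in the MCAO/R + Lrg1-/- libraries. In cluster 11 these groups had 546 and 1072 CPM, and 232, 242 and 136 CPM. The Lrg1-/- libraries were thus below the WT libraries in each of these clusters, while the 2 Lrg1-/- groups overlapped in clusters 7 and 16.

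A Cxcl10 UMI was found in 72.7%, 82.1% and 74.3% of sham + WT microglia and in 11.9%, 6.55% and 11.6% of sham + Lrg1-/- microglia. At 2000 UMIs per cell the shares were 57.1%, 62% and 53.7%, and 6.32%, 3.63% and 5.2%. In oligodendrocytes, at the same thinned depth, 6.73% to 11.4% of sham + WT cells and 1.14% to 1.75% of sham + Lrg1-/- cells had a Cxcl10 UMI. After MCAO/R, the thinned shares in microglia were 41.1% and 43.7% in WT mice and 26.1%, 17.3% and 14% in Lrg1-/- mice.

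The same genotype difference between the sham groups was called in 6 cell types of 13 tested, where 5.62% were called lower over all genes and types. T cells had 453, 513 and 568 CPM in the sham + WT libraries and 36.95, 56.0 and 19.9 CPM in the sham + Lrg1-/- libraries (log2 difference -3.78, SE 0.37, edgeR adjusted p = 0.000162, kept in every fit). Border macrophages had 383, 456 and 335 CPM against 137, 170 and 69.2 CPM (log2 difference -1.59, SE 0.30, edgeR adjusted p = 0.00757, kept in every fit). In both types the sham + Lrg1-/- libraries were all below the sham + WT libraries. Vascular smooth muscle cells had 43.8, 48.0 and 29.2 CPM against 2.67, 2.93 and 0 CPM (log2 difference -4.08, SE 0.36, edgeR adjusted p = 3.19e-05), and oligodendrocytes 46.6, 46.7 and 34.8 CPM against 6.02, 3.81 and 8.16 CPM (log2 difference -2.86, SE 0.32, edgeR adjusted p = 0.000599), and both calls were kept in every fit. Choroid plexus cells had 48.9, 139 and 71.3 CPM against 18.0, 8.74 and 23.9 CPM (log2 difference -2.40, SE 0.52, edgeR adjusted p = 0.00985, lost without sham + WT replicate 2, range -2.67 to -1.86).

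Markers of microglia were also present in these other types. Summed over the 9 microglial markers, oligodendrocytes had 383 to 609 CPM in sham + WT and 727 to 1066 CPM in sham + Lrg1-/-, and vascular smooth muscle cells 482 to 638 CPM and 691 to 866 CPM. Microglia made up 36.9% to 42.2% of cells in the sham + WT libraries, 43.5% and 36.4% in the MCAO/R + WT libraries, 9.3% to 12.6% in the sham + Lrg1-/- libraries and 6.11% to 21.3% in the MCAO/R + Lrg1-/- libraries. They gave 87.6% to 91.2% of a library's Cxcl10 UMIs in sham + WT and 10.3% to 34.1% in sham + Lrg1-/-. The part of free RNA in the levels of other types was not tested.

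After MCAO/R, Cxcl10 rose within Lrg1-/- mice in vascular smooth muscle cells, to 40.2, 36.9 and 30.4 CPM (log2 change 3.89, SE 0.37, edgeR adjusted p = 3.59e-05), and in oligodendrocytes, to 30.8, 24.4 and 30.5 CPM (log2 change 2.28, SE 0.33, edgeR adjusted p = 0.00165), both kept in every fit. In choroid plexus cells it rose to 154, 47.4 and 45.2 CPM (log2 change 2.32, SE 0.51, edgeR adjusted p = 0.0334), lost without either MCAO/R + WT library or any 1 sham + Lrg1-/- library (1.49 to 2.66). In WT mice vascular smooth muscle cells and oligodendrocytes had 49.6 and 35.6 CPM, and 56.9 and 29.1 CPM, and no change was called. The interaction was 3.80 in vascular smooth muscle cells (SE 0.46, edgeR adjusted p = 0.00893, lost without MCAO/R + WT replicate 2) and 2.27 in oligodendrocytes (SE 0.42, edgeR adjusted p = 0.0223, lost without sham + WT replicate 1 or 2 or sham + Lrg1-/- replicate 1 or 2, range 1.86 to 2.85). Between the MCAO/R groups, Cxcl10 was lower in Lrg1-/- border macrophages, at 137, 115 and 65.7 CPM against 295 and 169 CPM (log2 difference -1.13, SE 0.33, edgeR adjusted p = 0.0253), a call lost without MCAO/R + WT replicate 1 or MCAO/R + Lrg1-/- replicate 2 or 5 (-1.50 to -0.65). T cells of 1 MCAO/R + WT library had 1029 CPM in 23 cells. In MCAO/R + Lrg1-/- they had 123, 167 and 61.2 CPM (log2 difference -3.13), with too few libraries for a test.

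Astrocytes and neutrophils showed how single libraries can carry Cxcl10. Astrocytes had 1557 CPM in MCAO/R + WT replicate 1 and 64.1 CPM in replicate 2, and the top 1% of cells held 59.8% of the group's UMIs there, with up to 722 in 1 cell. Neutrophils had 768 and 93.7 CPM in the MCAO/R + WT libraries and 253 and 184 CPM in MCAO/R + Lrg1-/- replicates 2 and 5. Neither type gave a call for Cxcl10.

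**Figure D3:**
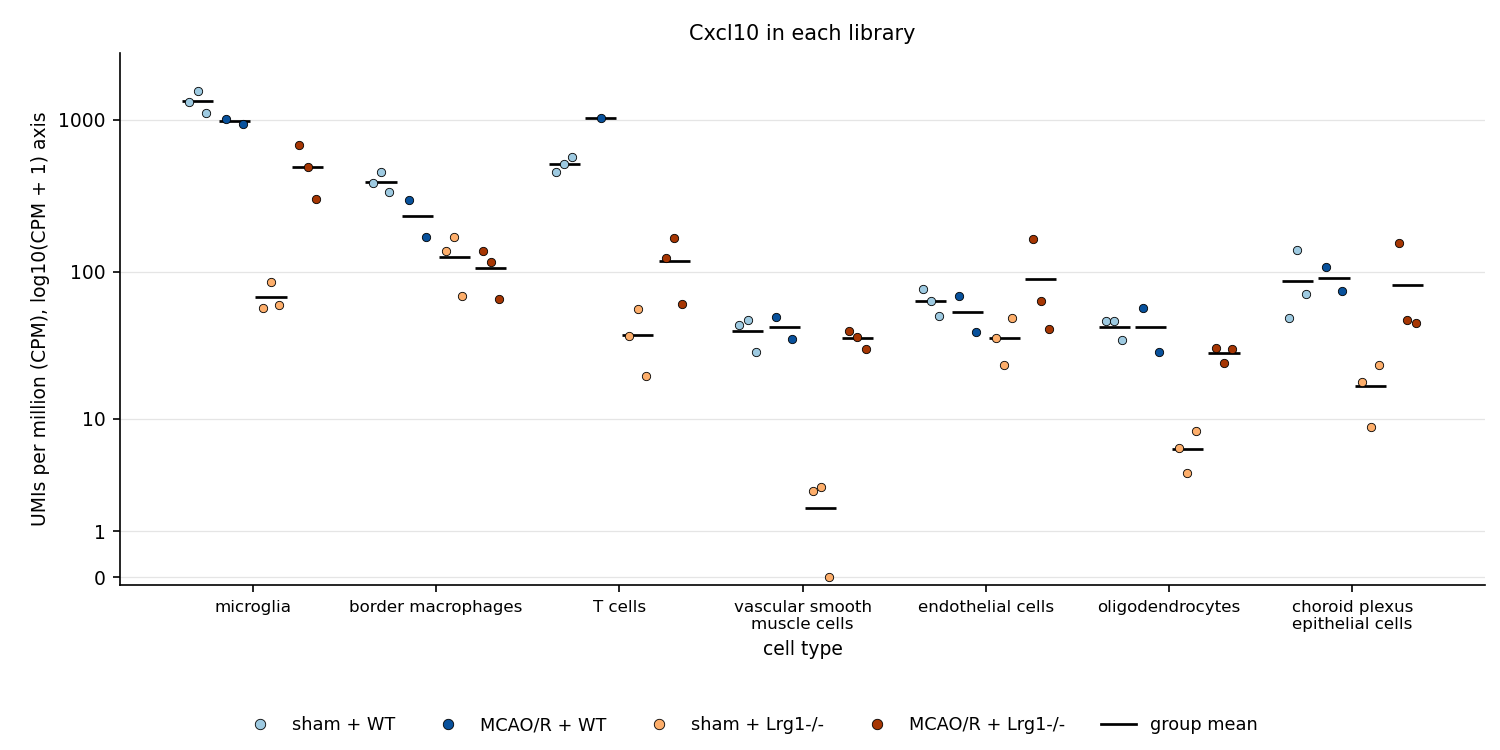
Cxcl10 in each library by group, as log10 of CPM + 1, in the cell types named under each axis, where points are libraries and lines are group means. In microglia the 3 sham + Lrg1-/- libraries lie at 57.5 to 84.8 CPM, below all other libraries, which lie at 299 to 1534 CPM.

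Interferon-induced genes (12 genes such as Ifit1, Isg15 and Irf7, all tested in microglia) were examined beside Cxcl10. Between the sham groups, 6 were lower and none was higher in Lrg1-/- microglia, with a median log2 difference of -1.72 against -0.03 over all genes, of which 22.9% were called. Ifit1, which binds viral RNA, was at 139 CPM in sham + WT and 3.07 CPM in sham + Lrg1-/- (log2 difference -5.53), and Isg15, a ubiquitin-like modifier, at 295 and 16.8 CPM (log2 difference -4.14). After MCAO/R, 7 rose and 1 fell in Lrg1-/- mice (median 1.89 against 0.05, with 38.2% of all genes called). In WT mice 2 rose and 1 fell (median 0.12 against 0.06), a share near the 22.1% called over all genes. The interaction called 4 of the 12, all higher, with 4.48 for Ifit1 and 3.17 for Isg15, and 12.2% of all genes tested. Between the MCAO/R groups 2 of the 12 were lower in Lrg1-/- mice, where 23.2% of all genes were called, so the list did not exceed the background there.

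Transcripts that rise during tissue dissociation also differed between the genotypes. Summed over the 12 genes of that list, microglia had 36123 to 39750 CPM in sham + WT, 33126 to 35343 CPM in MCAO/R + WT, 17210 to 20161 CPM in sham + Lrg1-/- and 10780 to 16671 CPM in MCAO/R + Lrg1-/-. Of the 12 genes, 8 were lower in Lrg1-/- microglia between the sham groups, and 9 were lower and 1 higher between the MCAO/R groups, where 22.9% and 23.2% of all genes tested in microglia were called. Haemoglobin transcripts summed to 15.5 to 23.6 CPM in WT microglia, 3518 to 8089 CPM in sham + Lrg1-/- and 6573 to 17329 CPM in MCAO/R + Lrg1-/-. The part of either in the differences of Cxcl10, Cxcl2 or any other member between genotypes was not tested.

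Cxcl9, which shares the receptor Cxcr3 with Cxcl10, was sparse. Over all cells it had 1189 UMIs. In microglia its level was 0.289, 4.97 and 1.21 CPM in the sham + WT libraries and 0.139 and 0 CPM in the MCAO/R + WT libraries (253 and 7 UMIs), a log2 change of -4.76 (SE 1.55, edgeR adjusted p = 0.0411). That call was lost in 5 of 11 fits without a library (sham + WT replicate 2 or 3, either MCAO/R + WT library, or MCAO/R + Lrg1-/- replicate 1; range -8.74 to -3.23). In endothelial cells, the sham + WT libraries had 0.138, 0.532 and 0.306 CPM and the sham + Lrg1-/- libraries 1.76, 1.16 and 8.89 CPM (24 and 108 UMIs), a log2 difference of 3.51 (SE 1.02, edgeR adjusted p = 0.0232), lost without any 1 sham + WT library or without sham + Lrg1-/- replicate 5 (2.13 to 4.01). A Cxcl10 UMI was also found in 31 of 33 microglia with a Cxcl9 UMI in sham + WT, 6 of 6 in MCAO/R + WT, 1 of 3 in sham + Lrg1-/- and 23 of 41 in MCAO/R + Lrg1-/-. Among all microglia, 9431 of 12374, 5537 of 8522, 204 of 2019 and 2624 of 8656 had one in these groups.

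By mean level, Cxcl9 was highest in pericytes (45.7 CPM), monocytes (5.33 CPM) and border macrophages (5.12 CPM), and single libraries carried these means. Pericytes had 360.2 CPM in MCAO/R + Lrg1-/- replicate 5 (90 UMIs in 53 cells) and at most 1 UMI in each of the other 8 libraries read. Monocytes had none in the WT libraries, 7.49, 10.1 and 43.8 CPM in the sham + Lrg1-/- libraries and 0, 2.35 and 0.348 CPM in the MCAO/R + Lrg1-/- libraries, and in neither of these types did Cxcl9 pass the filter on low counts. Border macrophages had 0.495, 14.3 and 0 CPM in sham + WT, 6.003 and 0 CPM in MCAO/R + WT, 1.58, 5.23 and 28.2 CPM in sham + Lrg1-/- and 0, 2.63 and 0 CPM in MCAO/R + Lrg1-/-, and no comparison was called there.

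Cxcl12 fell after MCAO/R in endothelial cells of both genotypes. Its level was 1420, 1482 and 1630 CPM in the sham + WT libraries and 320 and 432 CPM in the MCAO/R + WT libraries. It was 1110, 1423 and 1092 CPM in the sham + Lrg1-/- libraries and 496, 291 and 243 CPM in the MCAO/R + Lrg1-/- libraries. All MCAO/R libraries lay below all sham libraries, and the genotypes overlapped after either surgery. The log2 change was -2.01 in WT mice (SE 0.28, edgeR adjusted p = 0.000647), or 4.02-fold lower, and -1.82 in Lrg1-/- mice (SE 0.24, edgeR adjusted p = 0.00116), or 3.52-fold lower, and both calls were kept in every fit. The interaction was not called (0.19, SE 0.35, edgeR adjusted p = 0.895). Endothelial cells gave 45.0% to 92.3% of a library's Cxcl12 UMIs.

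The endothelial clusters also differed between the groups. By markers, cluster 6 was labelled capillary, cluster 18 arterial, and clusters 2 and 10 venous. The part of the clusters in the levels over the whole class was not tested. Clusters 6 and 18 held 58.4% and 26.8% of endothelial cells in sham + WT and 41.8% and 16.4% in sham + Lrg1-/-, while cluster 2 held 86% in MCAO/R + WT and 67.1% in MCAO/R + Lrg1-/-. Cluster 18, with arterial markers, allowed a comparison within 1 cluster. Its Cxcl12 was 1991, 2005 and 2126 CPM in the sham + WT libraries, 381 and 476 CPM in the MCAO/R + WT libraries, 1668, 2145 and 2177 CPM in the sham + Lrg1-/- libraries and 787, 417 and 171 CPM in the MCAO/R + Lrg1-/- libraries, so that sham and MCAO/R libraries did not overlap. In cluster 2, Cxcl12 was at 306 and 436 CPM in the MCAO/R + WT libraries and at 611, 279 and 329 CPM in the MCAO/R + Lrg1-/- libraries. In cluster 10, which held 13.9%, 8.69%, 39.7% and 24.7% of the class in the sham + WT, MCAO/R + WT, sham + Lrg1-/- and MCAO/R + Lrg1-/- groups, it was 1099, 1812 and 1428 CPM and 205 and 733 CPM in WT mice, and 488, 421 and 284 CPM and 109, 125 and 89.1 CPM in Lrg1-/- mice, with no overlap between the sham groups.

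**Figure D4:**
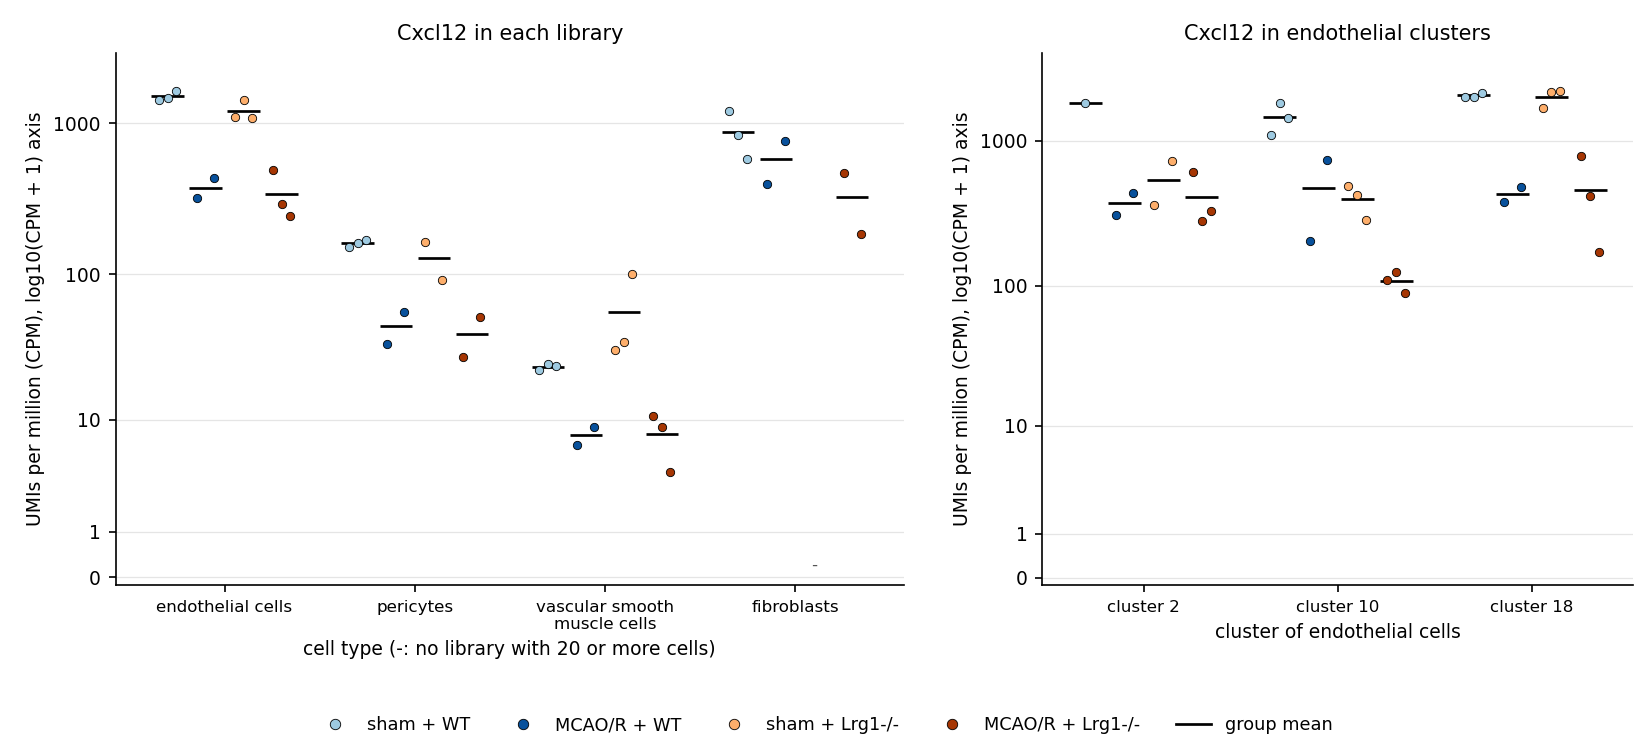
Cxcl12 in each library by group, as log10 of CPM + 1, in the cell types named under each axis and in endothelial clusters 2, 10 and 18, where points are libraries and lines are group means. Endothelial levels are 1092 to 1630 CPM after sham surgery and 243 to 496 CPM after MCAO/R.

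A Cxcl12 UMI was found in 74.4% to 87.1% of endothelial cells in the sham libraries and in 43.8% to 72.5% in the MCAO/R libraries. Thinned to 2000 UMIs per cell, the shares were 75.4% to 76% in sham + WT, 38.9% and 52.2% in MCAO/R + WT, 58.8% to 64.4% in sham + Lrg1-/- and 29.2% to 43.5% in MCAO/R + Lrg1-/-. Choroid plexus cells, at the same depth, had 1.22% to 12.5% over the libraries.

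Mural cells showed the same direction at lower levels. Pericyte Cxcl12 was 152, 161 and 169 CPM in the sham + WT libraries and 34.1 and 55.6 CPM in the MCAO/R + WT libraries (log2 change -1.83, SE 0.25, edgeR adjusted p = 0.00064, kept in every fit). In Lrg1-/- pericytes it went from 165 and 92.1 CPM to 27.6 and 52.0 CPM (log2 change -1.86, SE 0.41, edgeR adjusted p = 0.0316), a call kept in 3 of 9 fits without a library (-2.22 to -1.29) and lost without any 1 sham library or MCAO/R + Lrg1-/- replicate 2. Vascular smooth muscle cells had 30.7, 35.2 and 101 CPM in the sham + Lrg1-/- libraries and 10.7, 8.94 and 3.94 CPM in the MCAO/R + Lrg1-/- libraries (log2 change -2.76, SE 0.44, edgeR adjusted p = 0.000943, kept in every fit). In WT smooth muscle the log2 change was -1.62 (SE 0.48, edgeR adjusted p = 0.0357), lost without any 1 of the 5 WT libraries (-1.85 to -1.42). Fibroblasts, the other rich source, had 1205, 836 and 584 CPM in the sham + WT libraries and 395 and 763 CPM in the MCAO/R + WT libraries, and this was not called.

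Lymphocytes with Cxcl12 counts were few. B cells had 529, 324.6 and 573 CPM in the sham + WT libraries (40 to 76 cells), 12.5 CPM in the 1 sham + Lrg1-/- library read (50 cells) and 58.5 and 4.51 CPM in 2 MCAO/R + Lrg1-/- libraries. The sham difference was -5.21 on the log2 scale, with too few libraries for a test. T cells had 254.5, 162 and 127 CPM in sham + WT, 36.95, 60.4 and 86.7 CPM in sham + Lrg1-/- (log2 difference -1.64, SE 0.33, edgeR adjusted p = 0.00714, kept in every fit without a library but lost with doublets kept, at -1.06 and edgeR adjusted p = 0.118) and 15.4, 16.4 and 9.48 CPM in MCAO/R + Lrg1-/- (log2 change -2.09, SE 0.37, edgeR adjusted p = 0.0219, lost without sham + Lrg1-/- replicate 2 or 5 or MCAO/R + Lrg1-/- replicate 2 or 5, and with at least 50 cells per library).

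Low Cxcl12 levels fell after MCAO/R in both genotypes in choroid plexus cells, ciliated ependymal cells and microglia as well, with log2 changes from -3.00 to -1.25. The 3 calls in Lrg1-/- mice were kept in every fit without a library, but that in ciliated ependymal cells was lost at a Leiden resolution of 0.3 (-1.63, edgeR adjusted p = 0.157). Those in WT mice were lost without sham + WT replicate 1 or 3 or MCAO/R + WT replicate 1, and in choroid plexus and ependymal cells also without MCAO/R + WT replicate 2. The 8 endothelial markers, summed in choroid plexus cells, were at 564 to 863 CPM in sham + WT and 691 and 787 CPM in MCAO/R + WT, and in microglia at 268 to 329 CPM and 295 and 376 CPM. Endothelial Cxcl12 itself was lower after MCAO/R, and the part of free RNA in these low levels was not tested. In oligodendrocytes the genotypes differed, and the groups filled that class from different clusters. MCAO/R + WT gave 68.1% of cluster 9 (58.1 CPM of Cxcl12) and MCAO/R + Lrg1-/- 84.4% of cluster 12 (23.4 CPM). Sham + WT gave 87.7% of cluster 17 (27.6 CPM) and 65.4% of cluster 30 (181 CPM). The part of the clusters in the levels over the whole class, given next, was not tested. The sham + WT libraries had 35.1, 31.6 and 28.8 CPM, the MCAO/R + WT libraries 51.8 and 77.3 CPM, the sham + Lrg1-/- libraries 32.1, 65.3 and 79.3 CPM and the MCAO/R + Lrg1-/- libraries 6.61, 21.1 and 28.8 CPM. The MCAO/R + Lrg1-/- libraries lay below both the MCAO/R + WT and the sham + Lrg1-/- libraries and touched the lowest sham + WT library (from MCAO/R + WT, log2 difference -1.65, SE 0.39, edgeR adjusted p = 0.00961, lost without MCAO/R + WT replicate 2, range -2.02 to -1.31). Within Lrg1-/- mice the log2 change was -1.45 (SE 0.39, edgeR adjusted p = 0.0321, lost without sham + Lrg1-/- replicate 2 or 5 or MCAO/R + Lrg1-/- replicate 2). The interaction was -2.47 (SE 0.54, edgeR adjusted p = 0.0475), kept in 3 of 11 fits without a library (-2.86 to -2.15), those without MCAO/R + WT replicate 1 and MCAO/R + Lrg1-/- replicates 1 and 5.

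Cxcl13 had 255 UMIs in all, of which microglia held 111 and oligodendrocytes 55. Of those in oligodendrocytes, 49 were in MCAO/R + WT replicate 1 and 0 in MCAO/R + WT replicate 2. Fibroblasts had 13.4, 17.8 and 0 CPM in the sham + WT libraries, 0 in both MCAO/R + WT libraries, and 41.2 and 0 CPM in the MCAO/R + Lrg1-/- libraries read (12, 0 and 14 UMIs per group). In B cells 1 UMI was found over the 6 libraries read, and in astrocytes 6 UMIs, all in sham + Lrg1-/- replicate 1 (10.1 CPM). In microglia, the 1 type where it passed the filter on low counts, it stayed at or below 1.84 CPM. None of its comparisons was called in edgeR's test, with an unadjusted p of 0.0268 between MCAO/R + WT and sham + WT and of 0.0341 between the sham groups, and no difference was detectable at this depth.

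Cxcl16, the membrane-bound ligand, rose in microglia after MCAO/R in Lrg1-/- mice. Its level was 56.1, 58.1 and 49.7 CPM in the sham + WT libraries and 124 and 53.8 CPM in the MCAO/R + WT libraries. It was 53.8, 37.5 and 48.2 CPM in the sham + Lrg1-/- libraries and 156, 215 and 133 CPM in the MCAO/R + Lrg1-/- libraries. In Lrg1-/- mice the surgeries did not overlap (log2 change 1.85, SE 0.27, edgeR adjusted p = 0.000147, kept in every fit), while MCAO/R + WT replicate 2 lay within the sham + WT range, and the interaction was 1.15 (SE 0.39, edgeR adjusted p = 0.0693). Between the MCAO/R groups the log2 difference was 0.92 (SE 0.29, edgeR adjusted p = 0.0352), lost without MCAO/R + WT replicate 2, sham + Lrg1-/- replicate 5 or MCAO/R + Lrg1-/- replicate 1 or 2 (0.44 to 1.65). In cluster 13, these groups had 179 and 118 CPM, and 236, 249 and 242 CPM.

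Over all types, Cxcl16 was called higher in MCAO/R + Lrg1-/- than in MCAO/R + WT in 9 of 14 tested, where 7.31% were called higher over all genes and types. Border macrophages had 85.0 and 58.0 CPM in the MCAO/R + WT libraries and 122, 131 and 168 CPM in the MCAO/R + Lrg1-/- libraries (log2 difference 0.95, SE 0.24, edgeR adjusted p = 0.0134, lost without MCAO/R + WT replicate 2, range 0.67 to 1.27). Endothelial cells had 11.1 and 4.98 CPM against 40.3, 26.7 and 34.3 CPM (log2 difference 2.05, SE 0.34, edgeR adjusted p = 0.00177), and oligodendrocytes 5.51 and 2.16 CPM against 18.0, 22.2 and 22.2 CPM (log2 difference 2.49, SE 0.39, edgeR adjusted p = 0.00112), both kept in every fit. The groups did not overlap in any of the 3. The 9 microglial markers, all with a UMI, summed in endothelial cells to 233 to 367 CPM in MCAO/R + WT and 596 to 1376 CPM in MCAO/R + Lrg1-/-, and in oligodendrocytes to 175 to 312 CPM and 607 to 1410 CPM. Haemoglobin transcripts in these groups were at 631 to 1608 CPM and 22418 to 35407 CPM in endothelial cells, and at 18.5 to 19.4 CPM and 6935 to 36137 CPM in oligodendrocytes. Oligodendrocyte cluster 9, with 68.1% of its cells from MCAO/R + WT, had 5.03 CPM of Cxcl16. Cluster 12, with 84.4% of its cells from MCAO/R + Lrg1-/-, had 26.6 CPM. The part of these markers, transcripts or clusters in the Cxcl16 differences was not tested. The other 5 types were choroid plexus cells, ciliated ependymal cells, neurons and neuroblasts, pericytes and vascular smooth muscle cells, with log2 differences of 2.02, 2.88, 2.74, 3.28 and 2.15, kept in 9, 4, 10, 9 and 11 fits without a library (of 9 in pericytes and 11 elsewhere). Within Lrg1-/- mice, Cxcl16 was also called higher after MCAO/R in endothelial cells (1.69), vascular smooth muscle cells (2.01), choroid plexus cells (1.64), oligodendrocytes (1.67) and T cells (1.92), and the first 2 of these calls were kept in every fit without a library. Monocytes, with the highest mean level, had 182 and 137 CPM against 151, 136 and 124 CPM and gave no call. None of the 14 was called between MCAO/R + WT and sham + WT, where 3 had an unadjusted p under 0.05 in edgeR's test.

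Pf4 was even over the sham libraries in border macrophages and spread between the MCAO/R libraries. Its level was 2155, 2152 and 2037 CPM in the sham + WT libraries and 2029, 2137 and 1841 CPM in the sham + Lrg1-/- libraries. After MCAO/R it was 1311 and 356 CPM in the WT libraries and 1286, 4149 and 2433 CPM in the Lrg1-/- libraries, which overlapped. The log2 difference between the MCAO/R groups was 1.65 (SE 0.47, edgeR adjusted p = 0.0226), lost without MCAO/R + WT replicate 2 or MCAO/R + Lrg1-/- replicate 2 (0.98 to 2.91). Of border macrophages, clusters 27 and 34 held 91% and 8.99% in MCAO/R + WT and 61.1% and 38.9% in MCAO/R + Lrg1-/-.

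Monocytes carried Pf4 in MCAO/R + Lrg1-/-. They had 11.5, 3.11 and 8.13 CPM in the sham + WT libraries, 19.97 and 5.96 CPM in the MCAO/R + WT libraries, 2.50, 3.36 and 8.75 CPM in the sham + Lrg1-/- libraries and 41.9, 558 and 1213 CPM in the MCAO/R + Lrg1-/- libraries. The rise in Lrg1-/- mice was 7.05 on the log2 scale (SE 1.13, edgeR adjusted p = 0.00214, kept in every fit at 6.06 to 7.78) and replicates 2 and 5 were well above replicate 1. Between the MCAO/R groups the log2 difference was 5.32 (SE 1.12, edgeR adjusted p = 0.0173), lost without either MCAO/R + WT library (4.33 to 6.68). The 8 border macrophage markers, summed in monocytes, were at 238 to 301 CPM in sham + WT, 694 to 1261 CPM in MCAO/R + WT, 105 to 147 CPM in sham + Lrg1-/- and 263 to 1221 CPM in MCAO/R + Lrg1-/-, and 8 of 8 had a UMI in the last. Their part in the Pf4 levels of monocytes was not tested. Monocytes numbered 53 and 20 cells in the MCAO/R + WT libraries and 48, 931 and 738 cells in the MCAO/R + Lrg1-/- libraries.

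Between the genotypes, Pf4 was called higher in Lrg1-/- mice in 6 of 13 types tested after sham surgery and in 9 of 14 after MCAO/R, border macrophages and monocytes among the latter. Over all genes and types, 5.58% and 7.31% were called higher in these comparisons. Endothelial, choroid plexus, ciliated ependymal and vascular smooth muscle cells and oligodendrocytes were called under both surgeries. Endothelial cells had 7.10, 8.78 and 8.39 CPM in the sham + WT libraries and 20.5, 34.1 and 43.1 CPM in the sham + Lrg1-/- libraries (log2 difference 2.0, SE 0.34, edgeR adjusted p = 0.00206), then 9.91 and 3.47 CPM in MCAO/R + WT and 25.03, 31.0 and 35.9 CPM in MCAO/R + Lrg1-/- (log2 difference 2.18, SE 0.40, edgeR adjusted p = 0.00259). Choroid plexus cells had 13.6, 3.59 and 5.06 CPM against 21.0, 33.8 and 29.3 CPM (log2 difference 1.97, SE 0.36, edgeR adjusted p = 0.00567), and 2.76 and 2.94 CPM against 29.8, 32.6 and 40.1 CPM (log2 difference 3.59, SE 0.60, edgeR adjusted p = 0.00228). Genotypes did not overlap in either type under either surgery, and the 4 calls were kept in every fit. In ependymal cells, smooth muscle cells and oligodendrocytes the log2 differences were 2.51, 1.98 and 1.70 between the sham groups, kept in 3, 6 and 5 of 11 fits without a library, and 5.81, 3.34 and 3.22 between the MCAO/R groups, kept in 9, 10 and 11. Ependymal cluster 21 had 88.4 CPM of Pf4, with 78.1% of its cells from MCAO/R + Lrg1-/- and 1.04% from MCAO/R + WT. Ependymal cluster 31 had 12.8 CPM, with 41.5% and 17.3% from these groups. The part of the clusters in the ependymal differences was not tested. Microglia (2.23) and neurons (3.47) were called between the MCAO/R groups, each kept in 9 of 11. B cells had 8.53, 42.2 and 2.88 CPM in the sham + WT libraries. In the 1 sham + Lrg1-/- library read they had 257 CPM (log2 difference 3.64). B cells are counted in the 6 of 13 types above, although 1 library is too few for a test. The sham groups overlapped in T cells, microglia, neurons and pericytes, with no call. Haemoglobin, which marks red cell material, summed to 631 to 1608 CPM in WT endothelial cells and 22418 to 83579 CPM in Lrg1-/- endothelial cells, and to 11.7 to 30.7 CPM and 18862 to 74304 CPM in choroid plexus cells. Border macrophage markers were at 39.1 to 76.5 CPM in WT and 34.7 to 106 CPM in Lrg1-/- endothelial cells. The part of platelet or red cell RNA in these low levels was not tested.

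**Figure D5:**
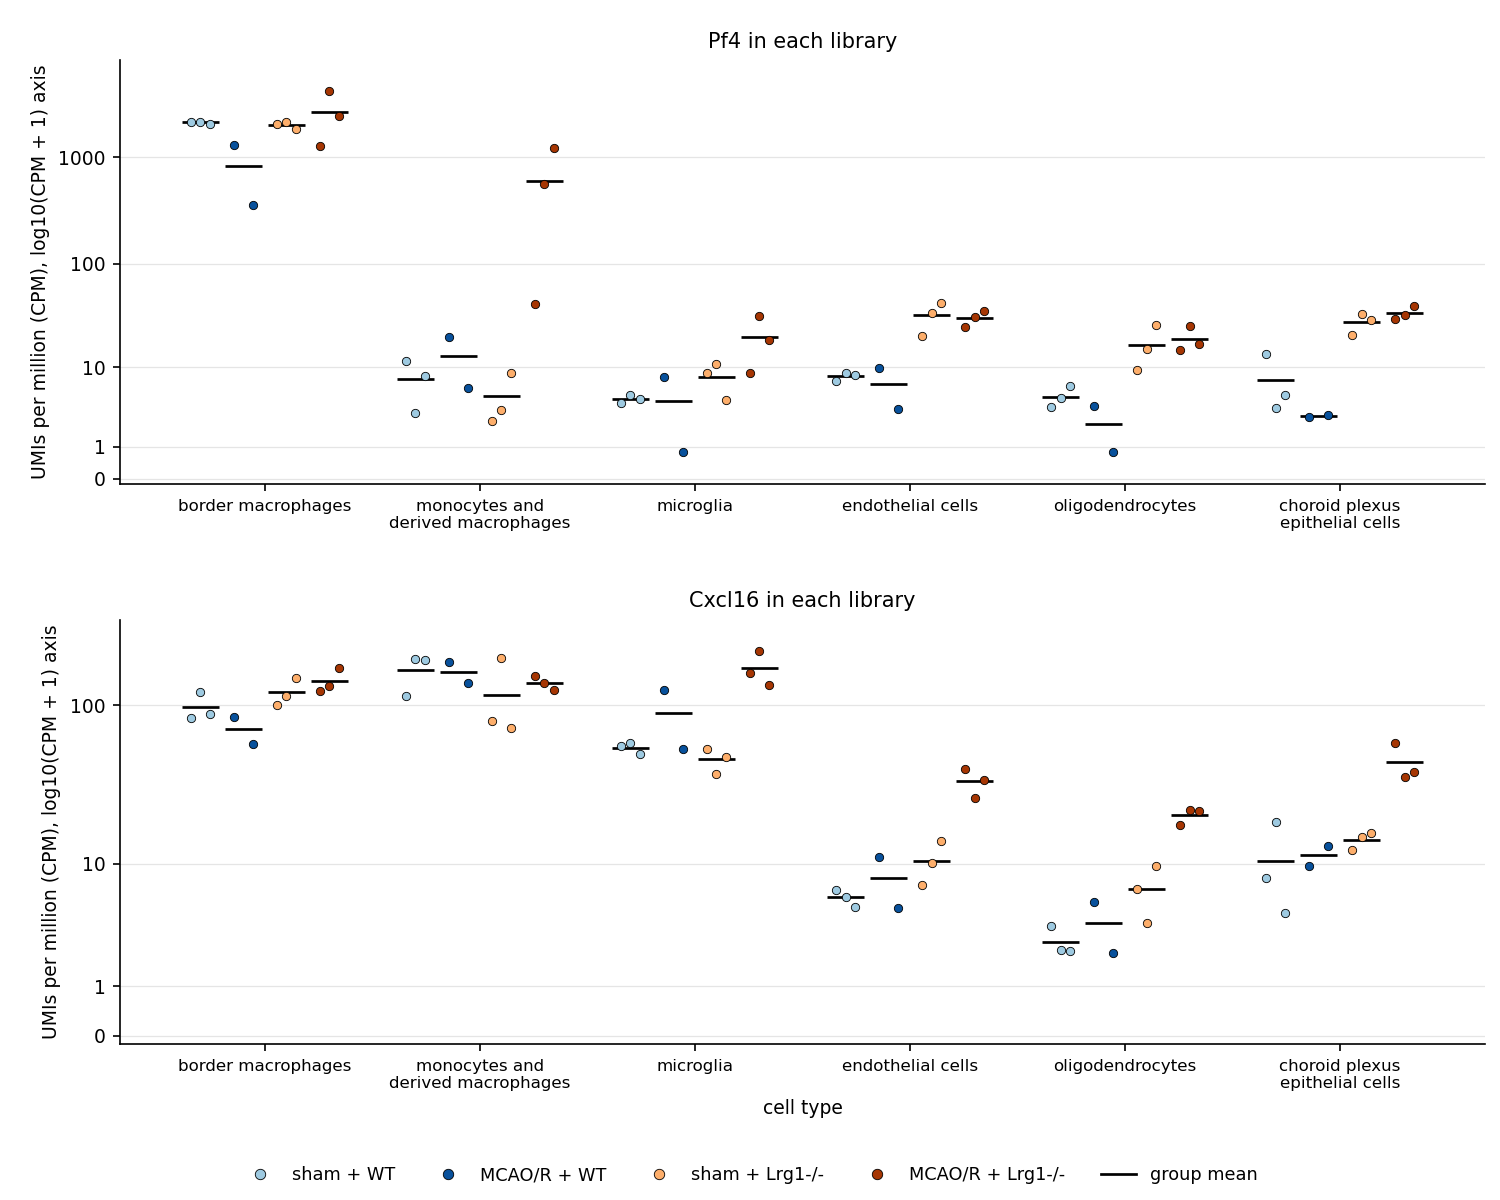
Pf4 and Cxcl16 in each library by group, as log10 of CPM + 1, in the cell types named under each axis, where points are libraries and lines are group means. Monocyte Pf4 is at 41.9 to 1213 CPM in the MCAO/R + Lrg1-/- libraries and at 19.97 CPM or below elsewhere, and border macrophage Pf4 is close to 2000 CPM in all sham libraries.

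Among the other CXC ligands, 13 of 27 tested combinations of gene and type were called between the MCAO/R groups (12 higher and 1 lower in Lrg1-/-), and 3 of 27 (all higher) between MCAO/R + WT and sham + WT, with backgrounds of 14.0% and 7.95%. Cxcl3, another ligand of Cxcr2, was at 5.45 CPM in sham + WT and 340 CPM in MCAO/R + WT monocytes (log2 change 5.90, SE 1.32, edgeR adjusted p = 0.0287), and at 1.54 and 479 CPM in Lrg1-/- monocytes (log2 change 8.5, SE 1.61, edgeR adjusted p = 0.00491). Ppbp, a platelet chemokine beside Pf4, was at 0.891 CPM in sham + WT and 6.31 CPM in sham + Lrg1-/- endothelial cells (log2 difference 2.80, edgeR adjusted p = 0.0038). Cxcl14, a ligand that attracts monocytes, was lower in Lrg1-/- astrocytes under both surgeries, at 95.2 against 319 CPM (sham) and 99.5 against 322 CPM (MCAO/R), with log2 differences of -1.75 and -1.69. Ppbp and Pf4 were thus both called higher in Lrg1-/- endothelial cells after sham surgery.

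Of the receptors, 10 of 54 combinations tested were called between the MCAO/R groups (7 higher, 3 lower in Lrg1-/-) and 9 of 53 between MCAO/R + WT and sham + WT (5 higher, 4 lower), against backgrounds of 14.0% and 7.95%. Cxcr2, which binds Cxcl1 and Cxcl2, was at 513 CPM in MCAO/R + WT and 354 CPM in MCAO/R + Lrg1-/- neutrophils. Ackr3, which takes up Cxcl12, fell after MCAO/R in WT pericytes from 483 to 213 CPM (log2 change -1.18, SE 0.25, edgeR adjusted p = 0.015), and was 83.7 CPM in sham + Lrg1-/- pericytes (log2 difference from sham + WT -2.53, SE 0.35, edgeR adjusted p = 0.000913). Ackr3 also fell in smooth muscle of both genotypes, from 230 to 113 CPM in WT mice (log2 change -1.03, SE 0.22, edgeR adjusted p = 0.00655) and from 228 to 104 CPM in Lrg1-/- mice (log2 change -1.21, SE 0.21, edgeR adjusted p = 0.00148). Ackr1, a venular receptor that carries chemokines across endothelium, was at 10.4 CPM in sham + WT and 112 CPM in MCAO/R + WT endothelial cells (log2 change 3.44, SE 0.88, edgeR adjusted p = 0.0223). It was among the leading genes of endothelial clusters 2 and 10, both labelled venous, and cluster 2 held most MCAO/R + WT endothelial cells. The part of the clusters in the Ackr1 difference was not tested. Cxcr3, the receptor of Cxcl9 and Cxcl10, fell in border macrophages after MCAO/R, from 16.1 to 2.56 CPM in WT mice (log2 change -2.64, SE 0.40, edgeR adjusted p = 0.0011) and from 18.4 to 6.47 CPM in Lrg1-/- mice (log2 change -1.71, SE 0.39, edgeR adjusted p = 0.0148).

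Of the 3 proteases that cut CXC chemokines, Dpp4, which inactivates Cxcl12 and Cxcl10, fell in endothelial cells together with Cxcl12. Its mean was 31 CPM in sham + WT and 3.34 CPM in MCAO/R + WT (log2 change -3.23, SE 0.35, edgeR adjusted p = 0.000117), and 20.2 and 6.18 CPM in Lrg1-/- mice (log2 change -1.74, SE 0.30, edgeR adjusted p = 0.00362). Adam10, a sheddase of Cxcl16, fell by 0.55 on the log2 scale in WT endothelial cells after MCAO/R (edgeR adjusted p = 0.0132), and Adam17 rose by 0.48 in Lrg1-/- microglia (edgeR adjusted p = 0.0142). The part of the endothelial clusters in the Dpp4 and Adam10 changes was not tested.

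Across the 17 cell types, the genes most like each member by Pearson's r of log2(CPM + 1), among 14793 genes, differed between members and shared libraries and depth with them. Cxcl2 was closest to Ccr1 (0.96), Tlr8 (0.96) and Cd300ld (0.95), and Pf4 to Pla2g2d (0.95), Cd209f (0.95) and Cd209b (0.94). For Cxcl12 these were Adm (0.95), Itih5 (0.94) and Gm16070 (0.93), for Cxcl10 Dglucy (0.91), Sh3bp1 (0.90) and Tnfrsf23 (0.88), and for Cxcl16 Ccl9 (0.94), Tifab (0.94) and Milr1 (0.92). Cxcl1 had weaker matches in Ifitm3 (0.76), Hspa1a (0.75) and Ifitm2 (0.75), as did Cxcl9 in Pde4c (0.78), Gm17268 (0.77) and Mmp13 (0.76).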

How the data were processed

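Cells of the right brain of 11 mice were sequenced with a 10x Genomics 3′ kit, 1 library per mouse. The authors deposited raw UMI counts per gene and barcode, made with Cell Ranger (version 7.0.1 per the file headers), and the submitters' processing notes name mm10. The methods of the study name another version. The kit captures 3′ ends, so levels are compared within a gene and not between genes.

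Groups came from the labels. Cells with more than 500 genes, more than 1000 UMIs and under 25% mitochondrial UMIs were kept, and simulated-doublet scores removed doublets per library. Where the automatic threshold marked too few cells, a fixed share with the highest scores was removed instead. This was so in sham + WT replicate 1, all sham + Lrg1-/- libraries and MCAO/R + Lrg1-/- replicates 1 and 5. Cells were clustered with numpy 2.4.6 and scipy 1.17.1 under Python 3.11.15 (2000 variable genes, 30 principal components, 3 neighbours per library, Leiden resolution 2 with leidenalg 0.10.2). Clusters were named from marker lists. Raw counts were summed per library and cell type (at least 20 cells) and fitted over all groups by edgeR (version 4.0.16, R 4.3.3) in its quasi-likelihood test, after TMM normalization and filterByExpr. Two-sided p-values were adjusted over all genes of a type, and a call also needed a natural-log fold change beyond 0.25. Members that passed the filter numbered 8 in microglia, 7 in border macrophages and endothelial cells, 5 in neutrophils, 4 in oligodendrocyte precursor cells and 6 in every other type. CPM are per 1e+06 of the TMM-adjusted total, and for clusters and whole libraries of the plain total. Libraries shared at most 1.24% of the barcodes of the smaller one. On simulated counts of 17551 genes for microglia, MCAO/R + Lrg1-/- against MCAO/R + WT, 78% of 100 genes changed by 1 and 99% of 100 changed by 2 on the log2 scale were recovered.

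The members, gene lists and tests were chosen with earlier results of these data known. Named were the 8 members in their 3 cell types of highest mean level (some by a mean or range alone) and wherever called (some calls by their log2 value alone), the listed CXC ligands, receptors and proteases, and the 3 genes most like each member with at least 10 CPM in a type. Cxcl11 has no row in the tables used here. The labels do not say that mice of the same number are paired, so no block was used. Alternatives were DESeq2 1.42.0 and its size factors, no filter on low counts, a replicate block, doublets kept, a limit of 10% mitochondrial UMIs, Leiden resolution 0.3, haemoglobin genes left out, at least 50 cells, no fold limit and each library left out. The number of barcodes was round in 4 libraries (sham + Lrg1-/- 15500, 9000 and 5650, and MCAO/R + Lrg1-/- replicate 1 8500), whose lowest UMIs per barcode were 551 to 770, against 500 elsewhere. The genes closest in pattern to Cxcl13 are not reported here.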

Additional observations from a re-analysis of the deposited data

Results flagged for a closer look

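In 4 cases the MCAO/R effect on a member differed between the genotypes in edgeR's test of the interaction, given as the log2 change in Lrg1-/- mice minus that in WT mice. For Cxcl10 the value was 3.28 in microglia, 3.80 in vascular smooth muscle cells and 2.27 in oligodendrocytes. In each of these types, Cxcl10 rose in Lrg1-/- mice from a low sham level, and no change was called in WT mice. The groups filled the microglia class from different clusters, and the 2 Lrg1-/- groups overlapped within clusters 7 and 16, as given above. The part of the clusters in the Cxcl10 values of microglia and oligodendrocytes was not tested. For Cxcl12 in oligodendrocytes the value was -2.47, where Lrg1-/- levels fell. WT levels there rose by 1.02 (SE 0.38, edgeR adjusted p = 0.0734), with no overlap of libraries and no call. The groups also filled that class from different clusters, as given above. Of the 4 values, that of Cxcl10 in microglia was past the threshold in every alternative fit.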

How the results depend on the processing

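Counts of calls are given in the order MCAO/R + Lrg1-/- against MCAO/R + WT (27), MCAO/R + WT against sham + WT (15), MCAO/R + Lrg1-/- against sham + Lrg1-/- (31), sham + Lrg1-/- against sham + WT (19) and interaction (4). Without the filter on low counts they were 60, 47, 62, 42 and 24, with more genes tested. At a Leiden resolution of 0.3, the first was 17, the fourth 9 and the interaction 2, the cause of which was not tested. With the replicate block they were 19, 10, 34, 11 and 4. Of the pairs of same-numbered mice, 39 of 162 over the types deviated together (correlation over 0.1), 10 of 13 in choroid plexus cells, and in 0 of 17 types did every pair, so the numbers were not taken to pair the mice. Without 1 library, the first ranged from 15 (without MCAO/R + WT replicate 2) to 32, the second from 5 (without sham + WT replicate 3) to 19, the third from 18 (without sham + Lrg1-/- replicate 2) to 38, the fourth from 10 (without sham + WT replicate 2) to 23 and the interaction from 2 to 8 (without MCAO/R + WT replicate 1). The second was also 8 without sham + WT replicate 1 and 7 without MCAO/R + WT replicate 1, the fourth 11 and 10 without sham + WT replicates 1 and 3, and the interaction 2 without sham + WT replicate 1 or 2, MCAO/R + WT replicate 2 or sham + Lrg1-/- replicate 1 or 2. A tally of single values covers only those called in the main fit, each read under the alternatives. Of these readings, 1684 kept their direction and their side of the threshold, 279 kept their direction and missed the threshold, and 0 reversed. Calls gained under an alternative are not in this tally. The MCAO/R + WT group had 2 mice, sham neutrophils 20 cells in 1 library, and Cxcl9 and Cxcl13 few UMIs, which limits these comparisons.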

Other observations

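Cells that no marker list named also carried members. Cluster 1, with 7883 cells of which 97.2% came from the MCAO/R + Lrg1-/- group, was led by Arg1, Chil3, S100a9 and Cxcl3. Its best-scoring type was neutrophils, and it stayed unnamed because a second type, oligodendrocytes, scored close. It had 1681 CPM of Cxcl2, 157 CPM of Cxcl1, 267 CPM of Cxcl10 and 209 CPM of Pf4. Cluster 3, with 7849 cells of which 89.7% came from that group, had 1127 CPM of Cxcl2, 126 CPM of Cxcl1 and 108 CPM of Pf4. Since 93.6% and 86.7% of these clusters came from 1 library each, no comparison between groups was made in them.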
